A study of Mus musculus with 6 samples.

Results

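TNF superfamily genes were examined in macrophages of the healing mouse infarct, with and without the integrin α5 chain. The set was chosen by symbol as the rows of the deposited count table named Tnf, Tnfsf12, Tnfsf13, Tnfsf13b, Tnfsf14, Tnfrsf1a, Tnfrsf1b, Fas, Tnfrsf12a and Traf1. These were 10 of 54532 genes, comprising 5 ligands, 4 receptors and 1 receptor adaptor. All 10 passed the filter on low counts, which left 14522 genes for testing.

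RNA was sequenced from Ly6G- CD11b+ cells isolated on magnetic columns from infarcted hearts of individual 12-week-old C57BL/6 mice, 7 days after the left anterior descending artery was permanently tied, without reperfusion. Both groups carried ITGA5 fl/fl alleles, in which recombination sites flank the gene of the α5 chain. The 3 ITGA5 fl/fl mice had no Cre, whereas the 3 Myα5KO mice also carried LyzM-Cre, which places the recombinase under control of the lysozyme M gene of myeloid cells. The study bred the controls as littermates without Cre, so the presence of Cre and the loss of the gene cannot be told apart in this comparison, and no uninfarcted hearts are part of it. CD11b marks monocytes, neutrophils and several other leukocytes besides macrophages, and LyzM-Cre is active in neutrophils as well as in macrophages. The cells were sequenced in bulk, so fewer cells of a type and less RNA per cell cannot be told apart.

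Libraries held 15424451 to 18419287 counted reads, and every Myα5KO total was above every ITGA5 fl/fl total. Itga5, the targeted gene, fell from 606 ± 43.1 to 48.6 ± 1.48 CPM (reads relative to library size, adjusted by the TMM method; SD, n = 3 each), which fits the labels. Lyz2, the lysozyme M gene into which the driver is inserted, fell by 0.92 on the log2 scale (SE 0.081, edgeR adjusted p 4.27e-05). The defining macrophage markers Adgre1 and Csf1r were abundant in all 6 libraries, at 1207 to 1392 and 1992 to 2298 CPM. A gene is called changed at an adjusted p of 0.05 or less in the quasi-likelihood test of edgeR, with Benjamini-Hochberg adjustment over all genes tested. By this criterion 8.75% of tested genes were called, 3.56% higher and 5.19% lower in Myα5KO macrophages. When libraries were scaled by their totals alone, 70.1% of calls were higher, compared with 40.7% under TMM scaling.

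TNF is made as a membrane protein and shed by a metalloprotease. It binds a pair of receptors: Tnfrsf1a, which is widely expressed and carries a death domain, and Tnfrsf1b, which is prominent on leukocytes, lacks a death domain and recruits TRAF adaptors. Both receptors can activate NF-κB, and Tnfrsf1a and Fas can also start caspase-dependent cell death. After infarction, macrophages are among the sources of TNF, and signals through its receptors are known to act on inflammation, on survival of heart muscle and on scar formation.

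The 2 members that changed were both receptors, and both were lower in Myα5KO macrophages. Tnfrsf1b fell to 66.2% and Fas to 70.4% of the mean ITGA5 fl/fl level. Tnfrsf1a, the other TNF receptor, differed by less than the spread between replicates. None of the 5 ligands was called. Of the 10 members, 2 were called against the background of 8.75%, and 0 were higher and 2 lower against 3.56% and 5.19%. Their median log2 fold change was -0.17, beside 0.015 for all genes tested.

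The bases that precede the transcription starts of the called receptors are shown. Each is the run of 250 bases upstream of the RefSeq start (GRCm38.p6), written 5′ to 3′ along the gene's strand. The Tnfrsf1b stretch lies at chr4:145246871-145247120 on the minus strand and the Fas stretch at chr19:34290409-34290658 on the plus strand. Capitals mark a match to the AP-1 consensus TGANTCA, in which N is any base.
Tnfrsf1b: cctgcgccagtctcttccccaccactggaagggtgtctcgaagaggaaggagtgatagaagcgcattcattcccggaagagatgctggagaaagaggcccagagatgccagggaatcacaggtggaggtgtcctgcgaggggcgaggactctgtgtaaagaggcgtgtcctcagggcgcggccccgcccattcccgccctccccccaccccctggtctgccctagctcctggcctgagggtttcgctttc
Fas: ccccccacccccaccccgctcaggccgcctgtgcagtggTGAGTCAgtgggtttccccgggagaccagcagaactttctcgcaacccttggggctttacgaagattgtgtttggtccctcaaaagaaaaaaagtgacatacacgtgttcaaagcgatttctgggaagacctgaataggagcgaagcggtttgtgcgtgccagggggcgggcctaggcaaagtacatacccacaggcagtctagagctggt
Both strands were searched. The Fas stretch held 1 AP-1 match, which begins 211 bases before the start, and the Tnfrsf1b stretch held 0. Neither held a match to the κB consensus, the 10-base site of NF-κB. RefSeq promoters were found for 9 of the 10 members, Tnfsf12 being the exception. A κB match was present in 0 of these 9 genes and an AP-1 match in 4. The 4 were Fas, Tnfsf13, Tnfsf13b and Tnfsf14, of which only Fas was called. Among tested genes with a RefSeq promoter, 10.7% held a κB match and 5.79% an AP-1 match in the same window. A match describes letters in this window and not the binding of a factor.

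Tnf encodes the ligand of both TNF receptors (GRCm38 chr17:35199381-35202007, minus strand). It was measured at 243, 261 and 281 CPM in the ITGA5 fl/fl libraries and at 186, 226 and 248 CPM in the Myα5KO libraries. The highest Myα5KO value lay above the lowest control value, so the groups overlapped. The log2 fold change of Tnf was -0.25 (SE 0.094, 95% interval -0.46 to -0.049, edgeR adjusted p 0.123), and it was not called.

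Tnfsf12 encodes TWEAK, the ligand of Tnfrsf12a. It was at 32.6, 30.8 and 38.9 CPM in ITGA5 fl/fl and at 33.6, 30.8 and 37.4 CPM in Myα5KO macrophages. The groups covered nearly the same range, with a log2 fold change of -0.0073 (95% interval -0.22 to 0.21). Cd163, a scavenger receptor reported to take up TWEAK, was at 95.1 ± 20 CPM and 109 ± 14.7 CPM (SD, n = 3 each) and was not called (edgeR adjusted p 0.387).

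Tnfsf13 encodes APRIL, a survival factor for B cells and plasma cells. Its values were 11.2, 10.3 and 9.15 CPM in ITGA5 fl/fl and 9.62, 9.35 and 9.19 CPM in Myα5KO libraries, which overlapped. Tnfsf13b, the related factor BAFF, had only 72, 96 and 74 reads in ITGA5 fl/fl libraries and 108, 119 and 117 in Myα5KO libraries. On the CPM scale these were 4.82, 5.63 and 4.2 against 5.74, 6.36 and 6.14. All 3 Myα5KO values of Tnfsf13b lay above the 3 control values. Its log2 fold change was 0.32 with a 95% interval from -0.019 to 0.65 (SE 0.155, edgeR adjusted p 0.244).

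Tnfsf12 and Tnfsf13 lie next to each other on chromosome 11 and share exons with Tnfsfm13, a readthrough gene on the same strand. In the GENCODE M21 annotation (GRCm38), Tnfsfm13 covers 48.3% of the exonic bases of Tnfsf12 and 60% of those of Tnfsf13. An antisense gene, Tnfsf13os, covers 13.5% of Tnfsf13. How reads in shared bases and reads from either strand were counted is not given in the sources used here, so the counts of both ligands are uncertain. Tnfsfm13 itself was at 5.06 ± 0.317 and 6.21 ± 0.363 CPM (SD, n = 3 each) and was not called (edgeR adjusted p 0.235). The exons of the other 8 members were not shared with any annotated gene.

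Tnfsf14 encodes LIGHT, a ligand of Tnfrsf14 and of the lymphotoxin β receptor Ltbr. It was at 39.8, 30.6 and 31.8 CPM in ITGA5 fl/fl and at 28.3, 34 and 29.3 CPM in Myα5KO macrophages, with overlapping groups. Its log2 fold change was -0.15 (95% interval -0.38 to 0.076, edgeR adjusted p 0.419). Neither of its receptors was called. Tnfrsf14 was at 9.71 ± 0.636 and 12.3 ± 1.3 CPM, and Ltbr at 61.5 ± 2.02 and 61.2 ± 4.83 CPM (SD, n = 3 each). The groups did not overlap for Tnfrsf14, as for 28.6% of all genes tested. With libraries scaled by their totals alone, Tnfrsf14 was called higher (log2 fold change 0.43, edgeR adjusted p 0.0353).

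**Figure D1:**
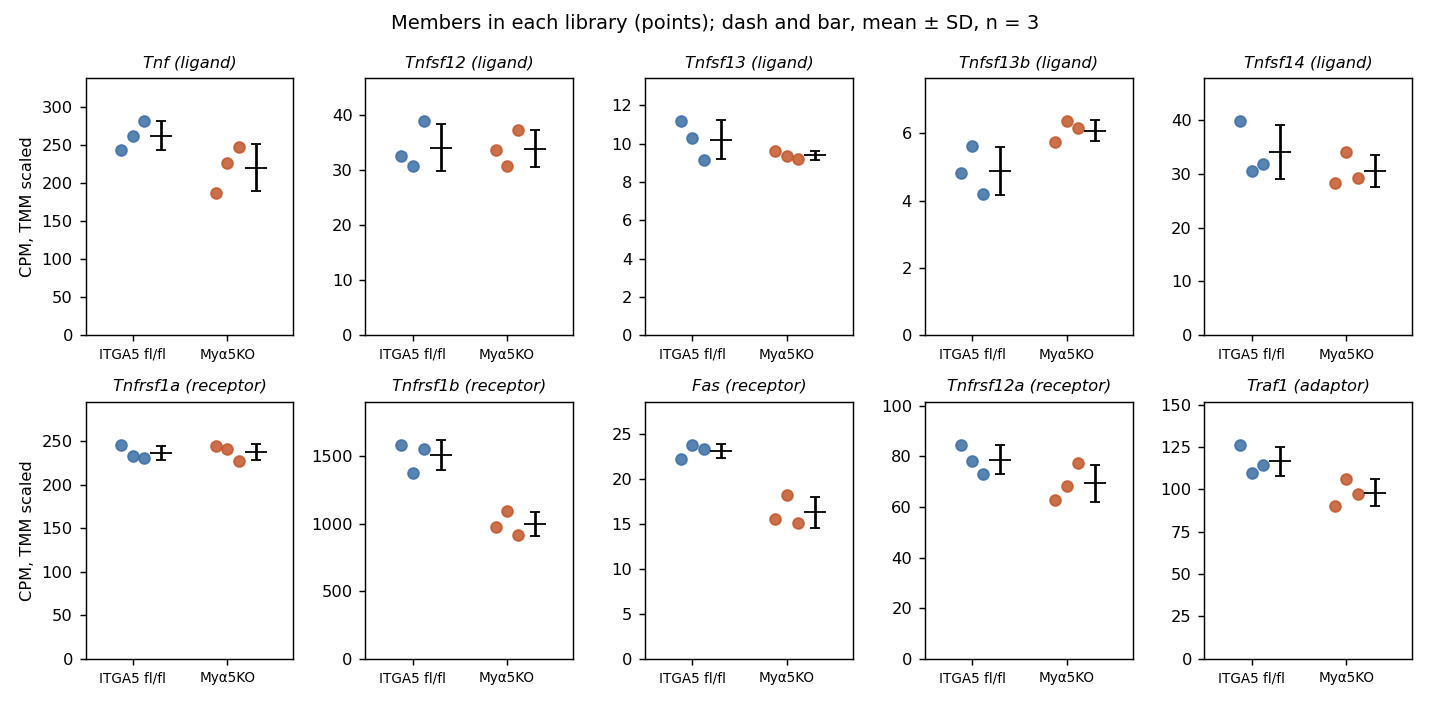
Expression of the 10 TNF superfamily members in each of the 6 libraries, in TMM-scaled CPM on linear axes that start at 0, with 1 point per library and the mean ± SD of 3 libraries beside them. Tnfrsf1b and Fas show 3 Myα5KO points below all 3 ITGA5 fl/fl points, whereas the points of Tnfrsf1a cover the same range in both groups.

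Tnfrsf1b encodes the second TNF receptor (GRCm38 chr4:145213463-145246870, minus strand) and was the most deeply covered member, with 17538 to 27420 reads per library. It was at 1585, 1379 and 1558 CPM in ITGA5 fl/fl and at 980, 1092 and 921 CPM in Myα5KO macrophages. The groups were well apart, since the lowest control value exceeded the highest Myα5KO value by more than the range of either group. The log2 fold change was -0.60 (SE 0.084, 95% interval -0.78 to -0.41, edgeR adjusted p 0.00104).

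Fas encodes the receptor of Fas ligand (GRCm38 chr19:34290659-34327770, plus strand). Its expression was 22.2, 23.8 and 23.4 CPM in ITGA5 fl/fl libraries and 15.6, 18.2 and 15.1 CPM in Myα5KO libraries, from 287 to 411 reads. No values overlapped, and the coefficient of variation of the 3 controls was 3.54%. The log2 fold change of Fas was -0.51 (SE 0.098, 95% interval -0.72 to -0.30, edgeR adjusted p 0.00671). Fasl, which encodes the ligand, had 11, 12 and 13 reads against 30, 19 and 18 reads and was not called (edgeR adjusted p 0.243).

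Tnfrsf1a (GRCm38 chr6:125349362-125362484, plus strand) was at 246, 233 and 230 CPM in ITGA5 fl/fl and at 245, 241 and 227 CPM in Myα5KO macrophages. The values were interleaved. Its log2 fold change was 0.0070 with a 95% interval from -0.13 to 0.15 (edgeR adjusted p 0.966), which corresponds to between 0.913 and 1.11 times the control level.

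Tnfrsf12a, the TWEAK receptor Fn14, was at 84.5, 78.3 and 73.1 CPM in ITGA5 fl/fl and at 62.7, 68.3 and 77.1 CPM in Myα5KO libraries. One Myα5KO value lay inside the control range. The log2 fold change was -0.18 (95% interval -0.36 to -0.00068, edgeR adjusted p 0.215).

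Traf1 encodes an adaptor that lacks the RING domain of other TRAF proteins and joins the complex of Tnfrsf1b through Traf2. It was at 126, 109 and 114 CPM in ITGA5 fl/fl and at 90.3, 106 and 97.5 CPM in Myα5KO macrophages. The groups did not overlap, although the gap between the nearest values was small. Traf1 was just outside the criterion, with a log2 fold change of -0.25 (SE 0.076, 95% interval -0.41 to -0.086, edgeR adjusted p 0.0595). Traf2 and Birc2, a ubiquitin ligase of the same complex, were not called, with log2 fold changes of -0.11 and -0.20 (edgeR adjusted p 0.518 and 0.136).

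Groups did not overlap for 4 members, Tnfrsf1b, Fas, Traf1 and Tnfsf13b, compared with 28.6% of all genes tested. At an unadjusted p under 0.05 the edgeR test listed 5 members, and 3353 of the 14522 genes tested.

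**Figure D2:**
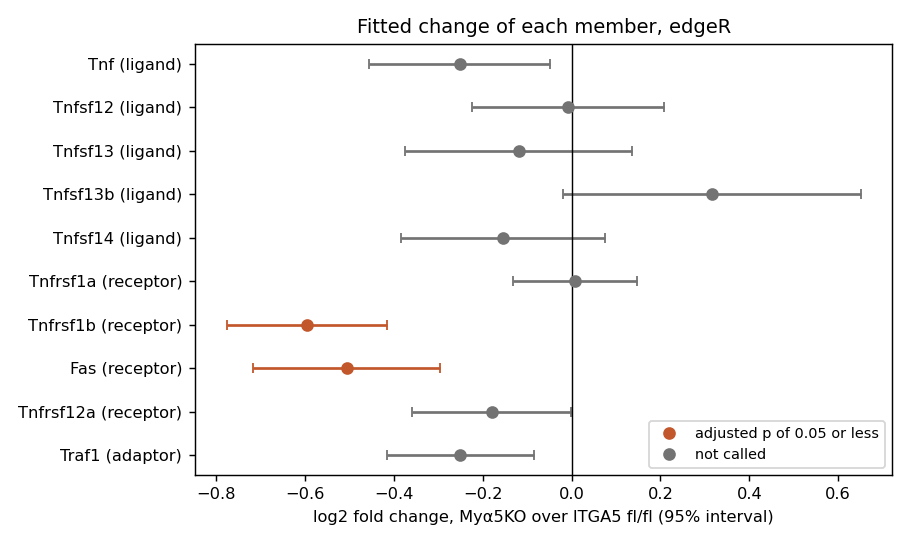
Log2 fold change of each member, Myα5KO over ITGA5 fl/fl, with the 95% interval from the edgeR fit (3 libraries per group). Tnfrsf1b at -0.60 and Fas at -0.51 are the members called. Under TMM scaling, the intervals of Tnf, Tnfrsf12a and Traf1 lie below 0 before adjustment for the number of genes tested.

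Levels of different members can be compared per gene length, for which the deposited FPKM values were used. In ITGA5 fl/fl macrophages the order was Tnfrsf1b at 394 ± 30.5, Tnf at 159 ± 11.5, Tnfrsf1a at 91 ± 3.25, Tnfrsf12a at 40.6 ± 2.97, Tnfsf12 at 22.4 ± 2.86, Tnfsf14 at 18.4 ± 2.76, Traf1 at 13.2 ± 1.01, Fas at 12.8 ± 0.422, Tnfsf13 at 6.22 ± 0.621 and Tnfsf13b at 0.709 ± 0.102 FPKM (SD, n = 3). Tnfsf12 and Tnfsf14 overlapped, as did Traf1 and Fas. The order was the same in Myα5KO macrophages, where Tnfrsf1b was at 260 ± 24.2 FPKM, Tnf at 133 ± 17.9 FPKM and Fas at 8.99 ± 0.978 FPKM (SD, n = 3). Tnfrsf1b was the only member among the most abundant 1% of genes in the controls.

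Summed over the 4 receptors, expression was 566, 502 and 547 FPKM in ITGA5 fl/fl and 392, 423 and 371 FPKM in Myα5KO libraries. The receptor sums did not overlap, and Tnfrsf1b made up most of each. Summed over the 5 ligands, of which Tnf was the largest, expression was 199, 202 and 220 FPKM against 158, 183 and 195 FPKM. The ligand sums were close together at their nearest values.

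Ratios of read counts inside a library do not depend on scaling and were compared for 4 pairs. The ratio of Tnfrsf1b to Tnfrsf1a was 6.45, 5.91 and 6.76 in the controls, against 4, 4.54 and 4.05 in Myα5KO libraries. This was a log2 difference of -0.60, with every Myα5KO library below every control. The ratio of Tnf to Tnfrsf1b was 0.153, 0.189 and 0.18 in the controls and 0.19, 0.207 and 0.269 in Myα5KO libraries, where it was higher in all 3 but by a narrow margin. Both of these ratios use the counts of Tnfrsf1b, so they are not separate results. The ratio of Tnfsf13b to Tnfsf13 had a geometric mean of 0.476 in ITGA5 fl/fl and 0.647 in Myα5KO macrophages, also without overlap. For these 3 pairs the exact two-sided permutation test gave p = 0.1, the smallest it can give for 3 against 3 libraries (0.133 after adjustment over the 4 pairs). The ratio of the receptor Tnfrsf12a to its ligand Tnfsf12 had geometric means of 2.31 and 2.04 and overlapped between groups (exact permutation p = 0.3, adjusted p = 0.3). The counts of Tnfsf12 and Tnfsf13 are uncertain because of their shared exons, and so are the ratios that use them.

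**Figure D3:**
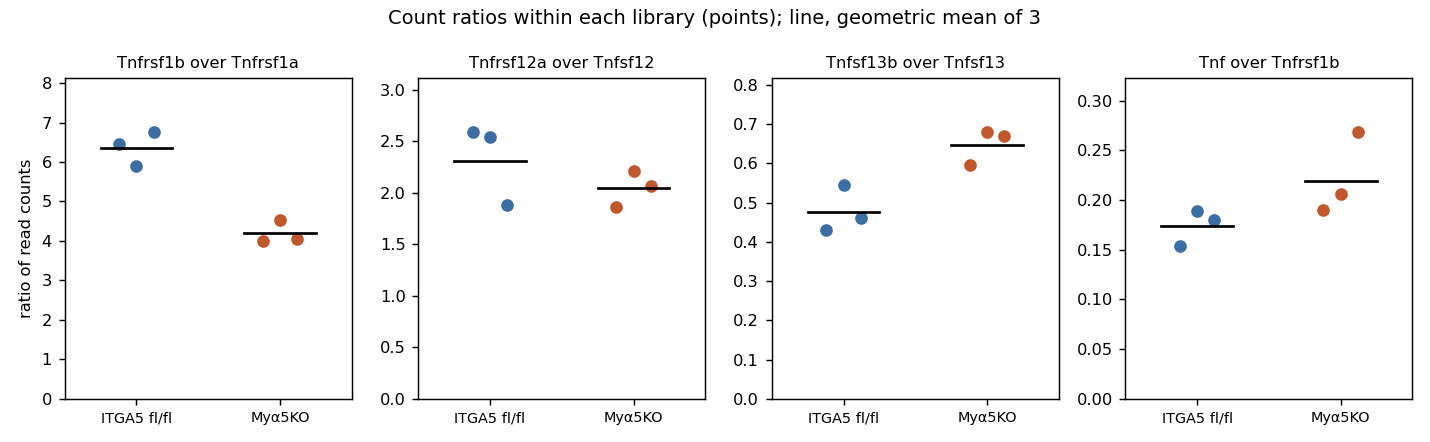
Ratio of the read counts of 2 members in the same library, 1 point per library, with a line at the geometric mean of 3 libraries and axes that start at 0. The ratio of Tnfrsf1b to Tnfrsf1a has a geometric mean of 6.36 in ITGA5 fl/fl and 4.19 in Myα5KO macrophages, and the ratio of Tnfrsf12a to Tnfsf12 overlaps between the groups.

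The genes whose profile over the 6 libraries was most like that of Tnfrsf1b were Eaf1, Tbc1d15 and Dyrk1a, with Pearson correlations of log2 CPM of 0.998, 0.998 and 0.997. Rffl and Mdm2 were among the 3 genes most like Fas, at 0.993 and 0.992. These values are a description over 6 libraries that share 2 groups, and among the 9224 genes compared 299 correlated with Tnfrsf1b and 204 with Fas above 0.95. All of these 5 named genes were called lower in Myα5KO macrophages, with log2 fold changes from -0.70 for Eaf1 to -0.38 for Tbc1d15. They were chosen for likeness to members that were lower, so their direction followed from the choice.

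Of the 13 other TNF superfamily ligands, 8 had enough reads to be tested, 2 were called higher and 0 lower. For this list and those below, the background over all genes tested is 3.56% called higher and 5.19% lower. The 8 tested ligands had a median log2 fold change of 0.67, with 7 of 8 above 0. This median describes only the ligands that passed the filter on low counts, most of which had few reads. That filter lets a gene pass on its reads in either group alone, so the median can lean toward the group with more reads. It is therefore not evidence of a direction. Ltb, lymphotoxin β, was at 3.82, 2.76 and 3.18 CPM in ITGA5 fl/fl and at 5.21, 4.60 and 5.62 CPM in Myα5KO libraries (log2 fold change 0.67, SE 0.181, edgeR adjusted p 0.0362). Tnfsf10, which encodes TRAIL, was at 2.88, 4.46 and 4.66 CPM against 5.79, 7.43 and 6.3 CPM (log2 fold change 0.69, SE 0.188, edgeR adjusted p 0.0366). Both rose from a low level, with 43 to 139 reads per library. Lta, which encodes the other lymphotoxin, had at most 8 reads and was not tested.

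Of the 24 other receptors, 21 were tested, 2 were called higher and 1 lower, with a median log2 fold change of -0.061. Tnfrsf13b encodes TACI, a receptor of APRIL and BAFF, and rose from 30.2 ± 1.31 to 36.8 ± 2.26 CPM (log2 fold change 0.29, edgeR adjusted p 0.0388). Tnfrsf11a encodes RANK, the receptor that drives osteoclast formation, and rose from 64.5 ± 3 to 76.9 ± 1.15 CPM (log2 fold change 0.25, edgeR adjusted p 0.0275). Tnfrsf26, a mouse receptor of the family, fell from 6.08 ± 1.21 to 3.96 ± 0.0289 CPM (log2 fold change -0.62, edgeR adjusted p 0.04; SD, n = 3 each). The remaining receptors of the B cell factors were not called, since Tnfrsf13c, the BAFF receptor, differed by 0.24 on the log2 scale (edgeR adjusted p 0.621) and Tnfrsf17 had at most 8 reads and was not tested. These calls depended on the fit: of 17 alternatives, Ltb was called in 8, Tnfsf10 in 9, Tnfrsf13b in 7, Tnfrsf11a in 10 and Tnfrsf26 in 5, each in the same direction.

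In the list of receptor complex and death signalling genes, 31 of 31 were tested, 5 were called lower and 0 higher, and the median log2 fold change was -0.059. The 5 were regulators of the pathway. Tnip1, which restrains NF-κB signalling together with A20, fell from 183 ± 3.47 to 114 ± 9.12 CPM (log2 fold change -0.68, SE 0.070, edgeR adjusted p 0.000129). Cflar, which encodes the caspase-8 inhibitor c-FLIP, fell from 669 ± 39.6 to 454 ± 34.8 CPM (log2 fold change -0.56, SE 0.077, edgeR adjusted p 0.000842). Traf3, an adaptor that holds the noncanonical pathway in check, fell from 134 ± 10.8 to 90.8 ± 14.6 CPM (log2 fold change -0.56, SE 0.101, edgeR adjusted p 0.00487; SD, n = 3 each). Map3k14, the kinase NIK that Traf3 keeps low as a protein, and Tnip2 had log2 fold changes of -0.43 and -0.30.

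Among 12 genes for shedding of the ligands and control of their mRNA, 3 were called lower and 0 higher (median log2 fold change -0.028). Rhbdf2 encodes iRhom2, which brings the TNF-shedding protease Adam17 to the cell surface, and fell from 262 ± 8.8 to 191 ± 4.42 CPM (SD, n = 3 each; log2 fold change -0.45, SE 0.063, edgeR adjusted p 0.000922). Zc3h12a, the endonuclease Regnase-1 that degrades cytokine mRNA, and Furin, a protease that processes Adam17 and ligands such as APRIL and BAFF, both had a log2 fold change of -0.32 and were called. Of 17 alternative fits, Furin and Tnip2 were each called in 11, Zc3h12a in 15, and Traf3 and Map3k14 in 14.

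The list of TNF and NF-κB response genes had the largest share of calls of the 5 lists, with 15 of 25 lower, 1 higher and 9 not called. Its median log2 fold change was -0.32. The study named Il6 and Il1b from this comparison, and Cxcl1 and Cxcl2 from a PCR array of macrophages of the same groups and time, so the list is not independent evidence of its direction. Cxcl1, a neutrophil-attracting chemokine, was at 661, 881 and 840 CPM in ITGA5 fl/fl and at 377, 431 and 407 CPM in Myα5KO libraries (log2 fold change -0.97, SE 0.099, edgeR adjusted p 0.000128). Il6 fell to 51.7%, Ptx3, a pentraxin of innate defence, to 52.9%, and Cxcl2, a chemokine like Cxcl1, to 57.1% of the control mean. Nfkb1, which encodes the p50 subunit of NF-κB, fell from 686 ± 26.5 to 426 ± 49.3 CPM (SD, n = 3 each; log2 fold change -0.69, SE 0.085, edgeR adjusted p 0.000359). Tnfaip2, a gene named for its induction by TNF, had a log2 fold change of -0.68. Of 17 alternative fits, Il6 and Ptx3 were each called in 14, and Cxcl1, Cxcl2, Nfkb1 and Tnfaip2 in 16. The edgeR adjusted p of Ptx3 was 0.0101. The call in the other direction was Cxcl10, an interferon-inducible chemokine named here after its values were seen, which rose from 71.8 ± 10.7 to 94.5 ± 6.79 CPM (SD, n = 3 each; edgeR adjusted p 0.0228).

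Of the 18 response genes with a RefSeq promoter, 12 held a κB match in the 250 bases before a start. The list was chosen as targets of NF-κB, so this share reflects the choice of genes and is a description only. Of the 6 response genes with the largest decreases, the 4 with a match are shown. Ptx3 held none, and Nfkb1 had no entry among the promoters used here. Capitals mark the κB match or overlapping matches, written along the strand of the gene, all on the plus strand of GRCm38.p6. The windows are chr5:90891164-90891194 for Cxcl1, chr5:90903792-90903822 for Cxcl2, chr5:30013060-30013089 for Il6 and chr12:111442627-111442656 for Tnfaip2.
Cxcl1: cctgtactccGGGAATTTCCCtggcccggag
Cxcl2: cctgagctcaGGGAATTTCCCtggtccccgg
Il6: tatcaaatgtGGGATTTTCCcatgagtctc
Tnfaip2: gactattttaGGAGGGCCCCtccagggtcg
The capitals of Cxcl1 and Cxcl2 are the same run of letters and begin 71 and 97 bases before the start. A κB match was held by 9 of the 13 response genes called lower that have a RefSeq promoter, by 2 of the 4 not called, and by Cxcl10, which was called higher.

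Over the 5 lists together, 97 of 105 genes were tested and 29 were called, 5 higher and 24 lower. That was 29.9% of those tested, beside 8.75% of all genes tested (3.56% higher and 5.19% lower). Of the 29, 16 were response genes, a list that is not independent evidence. All 5 lists were chosen with earlier results of these data known, so the pooled share is a description only. By list, 25% of the tested other ligands, 14.3% of the other receptors and 16.1% of the receptor complex genes were called. The shedding list had 25% called and the response genes 64%. With libraries scaled by their totals alone, the number called over the 5 lists was the same but 12 were higher and 17 lower. The background for that split is the same scaling, in which 1213 of 14522 genes rose by the criterion and 518 fell. The groups did not overlap for 54 of the 97 genes, compared with 28.6% of all genes tested.

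**Figure D4:**
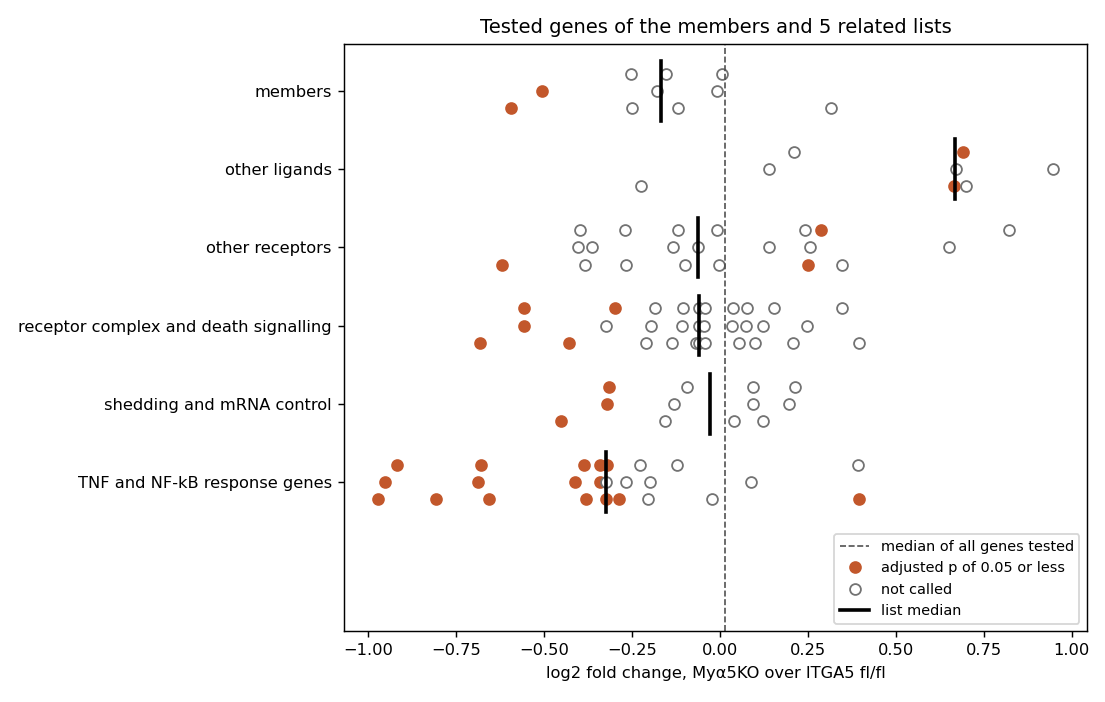
Log2 fold changes, Myα5KO over ITGA5 fl/fl, of the tested members and of the tested genes of 5 related lists, with 1 point per gene, filled where called by edgeR, and a bar at each list's median. The response genes lie mostly to the left, with a median of -0.32, whereas the medians of the receptor complex and shedding lists are near the dashed median of all genes at 0.015.

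Markers of several other cell types were measured at different levels in the groups. The sum of 9 neutrophil markers was 37.7 to 55 CPM in ITGA5 fl/fl and 72.3 to 193 CPM in Myα5KO libraries, with 5 of 7 tested markers called higher, while the defining marker Ly6g had at most 2 reads in any library and S100a8 was at 5.69 to 33.3 CPM. The sum of 5 monocyte markers was 271 to 354 and 419 to 422 CPM, with 3 of 5 called higher. The sum of 5 B cell markers was 67.9 to 107 and 107 to 172 CPM, which overlapped slightly, with 2 of 5 called higher. The 9 T and NK cell markers summed to 13.4 to 17.6 and 19.2 to 24 CPM, with 0 of 5 tested markers called.

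The sum of 8 fibroblast markers was 1617 to 1896 CPM in ITGA5 fl/fl and 1209 to 1577 CPM in Myα5KO libraries, with 1 of 8 called lower. The 6 cardiomyocyte markers summed to 18.8 to 21.2 and 12.3 to 16.1 CPM, with 2 of 6 called lower. The sums overlapped between groups for the 6 macrophage markers, at 7286 to 7490 and 7083 to 7407 CPM, for the 7 dendritic cell markers, at 93 to 121 and 113 to 125 CPM, and for the 5 endothelial cell markers, at 272 to 312 and 300 to 332 CPM. In each of these lists 1 marker was called higher and 0 lower. The macrophage sum, Myα5KO minus ITGA5 fl/fl, differed by -172 CPM under TMM scaling and by 237 CPM with libraries scaled by their totals alone. Exact permutation p-values of the 9 sums were between 0.1 and 0.5, and between 0.18 and 0.5 after adjustment over the lists. The part of these other cells in the values of Tnfrsf1b, Fas, Ltb, Tnfsf10, Tnfrsf13b and the response genes was not tested.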

How the data were processed

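RNA-seq was analysed for 6 libraries, 3 of ITGA5 fl/fl and 3 of Myα5KO mice, grouped and numbered by their titles. Per the labels and the study's methods, the authors aligned reads to GRCm38.p6 (mm10) with TopHat2 2.0.9 and counted them per gene with HTSeq 0.6.1. Cufflinks 2.1.1 is also listed. Handling of strand and of multiply mapped reads is not given in the sources used here. The deposited counts are whole reads per gene without normalization. The deposited FPKM values equal the count divided by gene length and by 1 constant per library, which was proportional to its DESeq2 size factor as computed here.

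Counts of all genes entered a single quasi-likelihood fit (edgeR 4.0.16, R 4.3.3; TMM scaling), with the default filter (minimum count 10, minimum total 15), no covariate and two-sided Benjamini-Hochberg adjusted p-values. SE and 95% intervals come from that fit. DESeq2 1.42.0 and limma 3.58.1 served as alternatives. Scripts were tested on simulated data. Ratios and marker sums were compared by exact two-sided permutation. The members, gene lists and alternatives were chosen with earlier results of these data known. Named are the members, their partners, Itga5, Lyz2, from each list the called genes (at most the 6 with the largest change), and for each called member the 3 protein-coding genes with at least 100 mean counts that correlated best with it, of which 1 is not reported here. Reads carry no molecular identifiers, so precision from depth covers counting error only. Replicates are individual mice. Same-numbered libraries did not deviate together.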

Additional observations from a re-analysis of the deposited data

How the results depend on the processing

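Tnfrsf1b and Fas were called lower in 16 of 17 alternative fits each and kept their direction in all 17. The exception, limma on log2(FPKM + 1) without a filter on low FPKM, called 0 members and 0 genes of the 5 lists, and only 10 genes in all, though 3 members had an unadjusted p under 0.05. Without a filter on counts 4 members were called, with Tnf and Traf1 added, and 1738 of all 27687 genes tested. Traf1 was also called by DESeq2, with at least 10 counts in every library and without Myα5KO replicate 2, and Tnf also without Myα5KO replicate 3. Without each library in turn, 2 to 3 members and 18 to 24 list genes were called, the lowest (18, beside 29) without ITGA5 fl/fl replicate 2. Over all genes, these fits called 616 to 1091 of 14826 to 14903 tested. The genes of the 5 lists called numbered 13 on log2(FPKM + 1), 12 on log2(FPKM + 0.1) and 14 at an adjusted p of 0.01. Over all genes, the FPKM fits called 472 and 448 of 11495 tested, and the stricter threshold 470 of 14522. Of these list calls none was higher in Myα5KO macrophages. The calls over all genes were not split by direction for these settings, so this is a description only. Tnfsf12 and Tnfrsf1a, with fold changes near 0, took either sign. With libraries scaled by their totals alone, the unadjusted edgeR p was 0.0915 for Tnf, 0.258 for Tnfrsf12a and 0.0383 for Traf1.

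Libraries with the same replicate number showed no shared deviation (correlations of deviations 0.051, -0.058 and 0.043). With so few libraries this cannot exclude that samples were paired. With the replicate block, 3 members were called, with Tnf added, and 27 genes of the 5 lists, beside 1181 of all 14522 genes tested. In each group 3 libraries limit what can be detected, and members with few reads, such as Tnfsf13b, have wide intervals.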
